A study of Mus musculus with 5 samples.

Results

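Proteoglycans are proteins that carry long sulfated sugar chains, and the 10 genes described here encode core proteins of this kind: the small leucine-rich proteoglycans decorin (Dcn), lumican (Lum) and biglycan (Bgn), the large matrix proteoglycan versican (Vcan), the transmembrane syndecans Sdc1, Sdc2 and Sdc4, and the glypicans Gpc1, Gpc3 and Gpc6, which a lipid anchor holds at the cell surface. They were chosen by name. Each of the 10 had 1 probe set that the platform annotation gives to that gene alone, out of 19938 genes measured. The chains of syndecans and glypicans are mostly heparan sulfate, which binds growth factors, Wnt proteins and hedgehog proteins, so these core proteins act as co-receptors. Decorin, lumican, biglycan and versican are secreted, carry chondroitin, dermatan or keratan sulfate, and organise collagen and hyaluronan in the matrix. In pancreas and in pancreatic tumours the matrix proteoglycans are known mainly as products of stellate cells and fibroblasts, while Sdc1 and Sdc4 are typical of epithelium.

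RNA from 5 mouse cultures was hybridised to Affymetrix whole-transcript arrays, and each array gave 1 log2 signal per probe set. The PDAC group held 3 primary cultures of pancreatic ductal adenocarcinoma with the genotype Pdx-1Cre, APCL/+ and p53L/L, and the normal ductal group held 2 cultures with Pdx-1Cre and p53L/L. Both groups thus carry a pair of floxed p53 alleles and a Cre driven from Pdx-1, a gene of the pancreatic lineage, while the PDAC cultures alone have 1 floxed Apc allele as well, Apc being a scaffold on which beta-catenin is marked for degradation. The title of normal ductal replicate 2 names neither Cre nor ductal cells, though its other labels name ductal cells, and the title of PDAC replicate 3 alone calls the cells mutant. The cultures had fewer than 6 passages, and no animal ages are given in the sources used here. The samples are labelled biological replicates, the design text speaks of cell lines, and no separate animals are named, so that the p-values reflect the spread among these cultures alone, which may be technical.

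Array medians lay between 5.90 and 6.02, and the number of arrays limited the precision. Apc had log2 signals from 8.58 to 9.06 in PDAC cultures against 9.23 and 9.02 in normal ductal cultures, which overlap; where its probes lie relative to the floxed part is not given in the sources used here, so this does not check the genotype. The cultures differed within groups in markers of cell type. The mean log2 signal of 11 duct and epithelial markers was 6.77, 7.66 and 9.21 in PDAC replicates 1, 2 and 3 against 11.32 and 11.02 in normal ductal replicates 1 and 2, so that the labelled duct identity was clear in the normal ductal cultures and lower, to an unequal degree, in PDAC. For 18 fibroblast and stellate cell markers the means were 9.66, 9.07 and 8.95 in PDAC against 7.48 and 9.51 in normal ductal cultures. Acinar, islet and endothelial markers stood highest in normal ductal replicate 2, with list means of 7.73, 8.66 and 7.32 there, and mesothelial markers in PDAC replicate 3, at 9.17. No marker was at 0 in any array, and in whole cultures fewer cells of a type and less RNA per cell cannot be told apart.

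**Figure D1:**
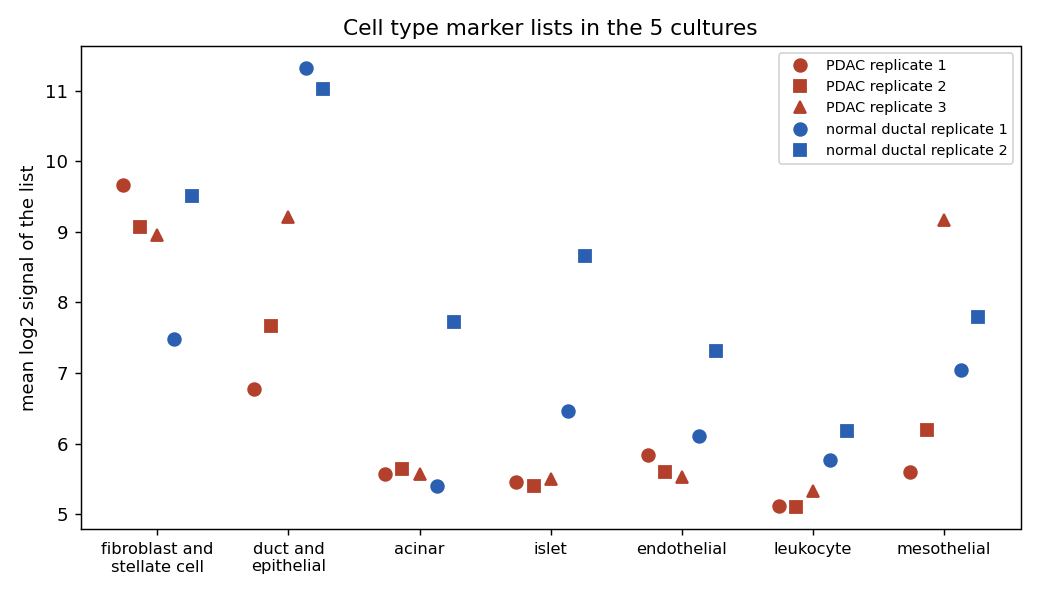
Mean log2 signal of each cell type marker list (vertical axis) in the 3 PDAC cultures, drawn in red to the left of the 2 normal ductal cultures in blue, with 1 symbol per culture. The fibroblast and stellate cell list stands at 7.48 in normal ductal replicate 1 and between 8.95 and 9.66 in the other cultures.

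The comparison of PDAC with normal ductal cultures asked which core proteins separate tumour cultures with a floxed Apc allele from duct cultures that lack it. Sdc2 and Gpc6, both of the cell surface, were higher in every PDAC culture, 3.10-fold for Sdc2 and 2.19-fold for Gpc6 on the linear scale. Gpc1 and Sdc1 were also higher in every PDAC culture, but by log2 gaps of only 0.10 and 0.03. Gpc3 was lower in every PDAC culture. For Sdc1 and Sdc4 the log2 fold changes were 0.14 and -0.12. In the matrix members Dcn, Lum, Bgn and Vcan the 2 normal ductal cultures lay further apart than the group means, as in Sdc1 and Sdc4. Over the PDAC cultures the range exceeded the difference of the group means in Dcn, Lum, Sdc4 and Gpc1. After Benjamini-Hochberg adjustment over all 19938 genes the limma moderated test called 0 of the 10 members, where it called 0.0552% of all genes, and at an unadjusted p under 0.05 it gave 2 higher and 1 lower, where the shares of all genes were 6.5% and 6.86%. In 4 members every PDAC value lay above both normal ductal values and in 1 every PDAC value lay below them, while all genes gave 13.6% and 12.8%. The median log2 fold change of the members was 0.39, that of all genes 0.01.

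**Figure D2:**
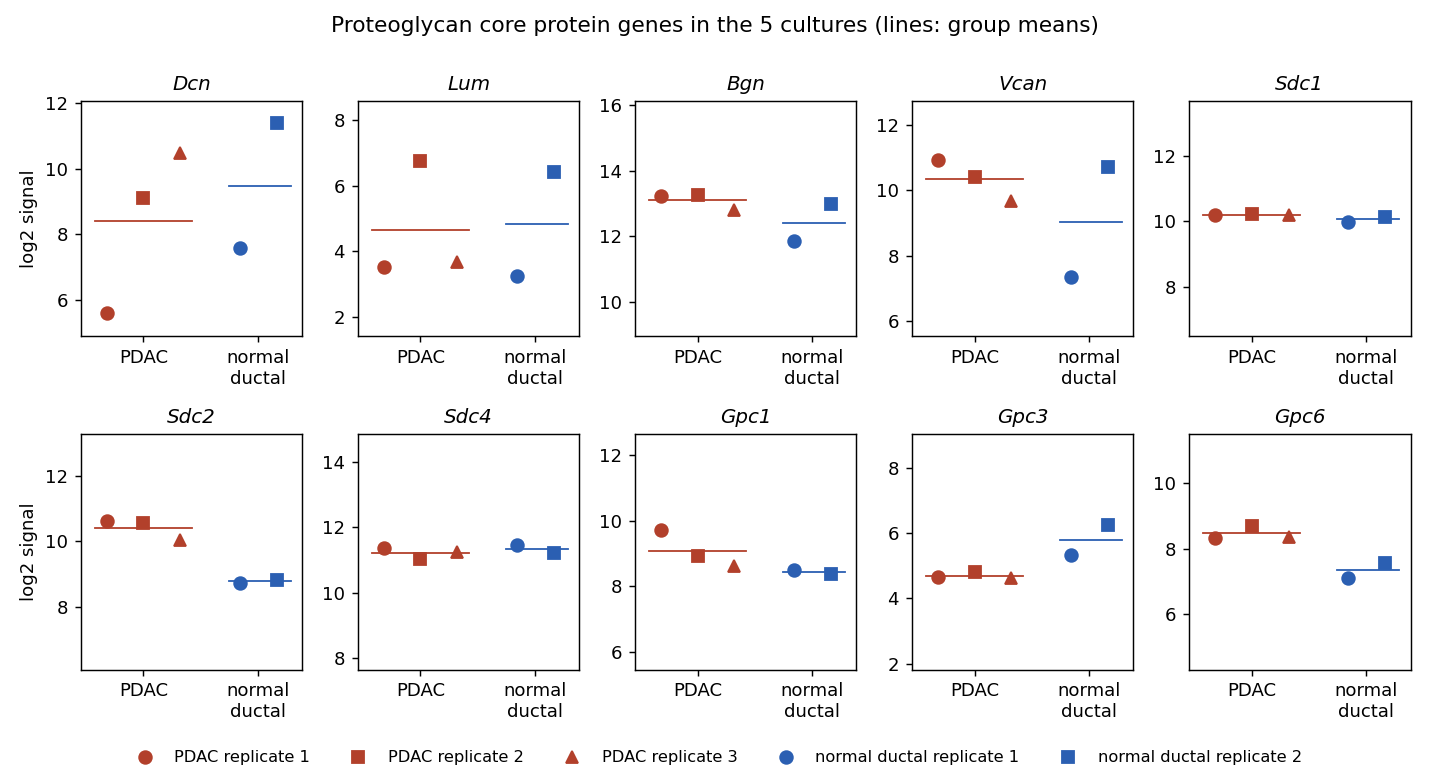
Log2 signal of each gene (vertical axis, 1 panel per gene, all panels of equal span) in the 3 PDAC cultures in red and the 2 normal ductal cultures in blue, with group means as lines. Sdc2, Gpc6 and Gpc3 part the groups, Sdc1 and Sdc4 form nearly level rows, and Dcn, Lum and Vcan spread over more than 3 log2 units among the cultures.

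Among the syndecans, Sdc2 differed most between the groups. Sdc2, a syndecan best known from mesenchymal cells, had log2 signals of 10.63, 10.56 and 10.03 in PDAC cultures against 8.73 and 8.82 in normal ductal cultures. The lowest PDAC culture lay 1.21 above the higher normal ductal culture, and the normal ductal pair differed by only 0.09. The mean was 10.41 ± 0.33 (SD, n = 3) in PDAC and 8.78 ± 0.07 (SD, n = 2) in normal ductal cultures, a log2 fold change of 1.63 (SE 0.23, 95% interval 0.997 to 2.26) with an unadjusted p = 0.00214 and an adjusted p = 0.166 by limma, which does not pass the threshold of 0.05. With any 1 culture left out, the log2 fold change of Sdc2 stayed between 1.52 and 1.82. Sdc2 lies on chromosome 15 from 32920723 to 33034721 in the GRCm38 assembly.

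Sdc1, the main syndecan of simple epithelia, had log2 signals of 10.17, 10.20 and 10.20 in PDAC cultures against 9.96 and 10.14 in normal ductal cultures. The groups did not overlap, but the gap between them was 0.03, smaller than the 0.18 between the normal ductal cultures. The log2 fold change of Sdc1 was 0.14 (SE 0.08, 95% interval -0.09 to 0.37, adjusted p = 0.550 by limma). The PDAC cultures kept within 0.03 of each other in Sdc1 even though their epithelial marker means ran from 6.77 to 9.21 and Cdh1, the gene of E-cadherin, stood at 6.41, 8.33 and 10.76 in them, against 12.32 and 11.96 in normal ductal cultures.

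Sdc4, a broadly made syndecan of focal adhesions, had log2 signals of 11.37, 11.04 and 11.23 in PDAC cultures against 11.45 and 11.22 in normal ductal cultures. These values overlap. The log2 fold change was -0.12 (SE 0.14, 95% interval -0.51 to 0.26, adjusted p = 0.697 by limma), an interval that stays within 1 log2 unit of 0.

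The 3 glypicans went different ways. Gpc6, a glypican of mesenchyme and of skeletal growth, had log2 signals of 8.33, 8.70 and 8.37 in PDAC cultures against 7.10 and 7.56 in normal ductal cultures. The groups were 0.76 apart at their nearest values, more than the range of 0.37 over the PDAC cultures or the 0.46 between the normal ductal cultures. The log2 fold change of Gpc6 was 1.13 (SE 0.21, 95% interval 0.54 to 1.72), with an unadjusted p = 0.00627 and an adjusted p = 0.208 by limma, and it ran from 0.90 to 1.36 with 1 culture left out. Gpc6 lies on chromosome 14 from 116924920 to 117979529.

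Gpc1, the glypican most often described in pancreatic cancer, had log2 signals of 9.72, 8.92 and 8.60 in PDAC cultures against 8.50 and 8.37 in normal ductal cultures. PDAC replicate 1 stood apart, and the lowest PDAC culture was 0.10 above the higher normal ductal culture. The log2 fold change of Gpc1 was 0.65 (SE 0.38, adjusted p = 0.550 by limma) and was 0.33 without PDAC replicate 1.

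Gpc3, a glypican of embryonic tissues that restrains hedgehog signalling in mouse, had log2 signals of 4.65, 4.80 and 4.61 in PDAC cultures against 5.31 and 6.24 in normal ductal cultures. The PDAC cultures lay within 0.18 of each other, and normal ductal replicate 2, the culture with the most acinar, islet and endothelial marker signal, was 0.92 above replicate 1. The mean was 4.69 ± 0.10 (SD, n = 3) in PDAC and 5.78 ± 0.65 (SD, n = 2) in normal ductal cultures, a log2 fold change of -1.09 (SE 0.31, 95% interval -1.96 to -0.22) with an unadjusted p = 0.0254 and an adjusted p = 0.306 by limma. It was -1.55 with an adjusted p = 0.0263 by limma without normal ductal replicate 1, a fit in which 1.54% of all genes were called lower, and -0.63 with an adjusted p = 0.128 without replicate 2. The part of the other cell types in Gpc3 was not tested. Gpc3 lies on the X chromosome from 52272426 to 52613974, next to Gpc4.

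**Figure D3:**
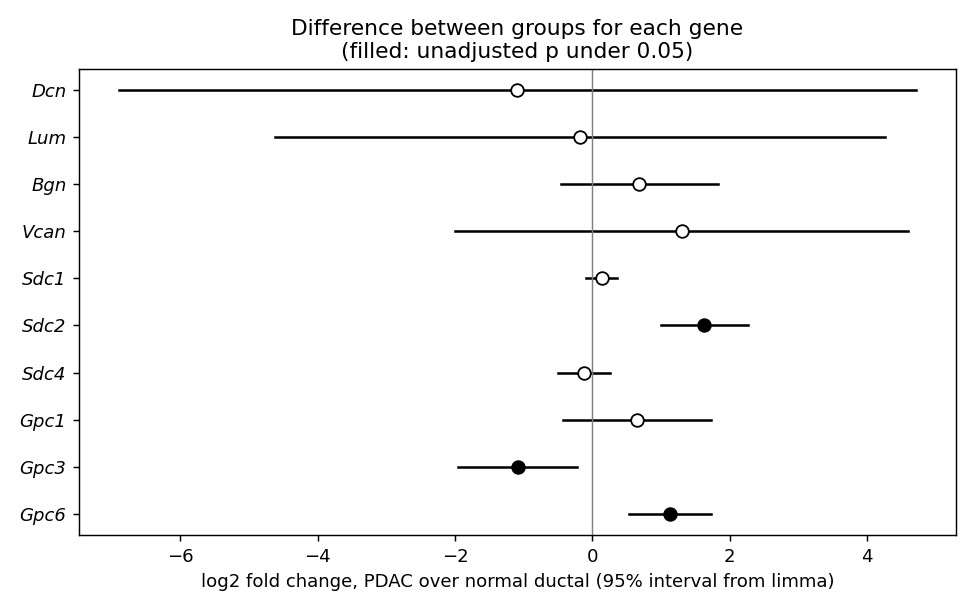
Log2 fold change of each gene, PDAC over normal ductal (horizontal axis), with its 95% interval from limma as a bar; filled points have an unadjusted p under 0.05. The intervals of Sdc1 and Sdc4 are narrow and span 0, those of Sdc2, Gpc6 and Gpc3 lie off 0, and that of Dcn runs from -6.89 to 4.71.

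The promoter windows of 3 members are shown because these genes stand for 3 kinds of behaviour among the members: Gpc3 lower in PDAC, Sdc1 level over the cultures, and Vcan parting the normal ductal cultures. Sequences are RefSeq's for the GRCm38.p6 build, 250 bases before and 50 after an annotated start, read 5′ to 3′ along the gene, and 5 of the 10 members had such an entry. Capitals mark matches to the GC box GGGCGG or the CCAAT box on either strand.
Gpc3: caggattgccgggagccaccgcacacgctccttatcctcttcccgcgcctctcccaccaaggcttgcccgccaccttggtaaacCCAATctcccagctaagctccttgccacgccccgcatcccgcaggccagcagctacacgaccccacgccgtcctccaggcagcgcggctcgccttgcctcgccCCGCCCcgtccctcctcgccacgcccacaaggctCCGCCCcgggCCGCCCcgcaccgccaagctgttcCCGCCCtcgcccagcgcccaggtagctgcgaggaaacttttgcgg
Sdc1: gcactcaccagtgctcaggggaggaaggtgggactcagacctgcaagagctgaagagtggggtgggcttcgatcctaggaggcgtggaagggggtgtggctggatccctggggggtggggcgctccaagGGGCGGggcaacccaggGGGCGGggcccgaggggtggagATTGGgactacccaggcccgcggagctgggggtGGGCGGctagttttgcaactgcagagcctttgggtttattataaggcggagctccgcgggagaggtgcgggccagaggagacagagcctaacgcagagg
Vcan: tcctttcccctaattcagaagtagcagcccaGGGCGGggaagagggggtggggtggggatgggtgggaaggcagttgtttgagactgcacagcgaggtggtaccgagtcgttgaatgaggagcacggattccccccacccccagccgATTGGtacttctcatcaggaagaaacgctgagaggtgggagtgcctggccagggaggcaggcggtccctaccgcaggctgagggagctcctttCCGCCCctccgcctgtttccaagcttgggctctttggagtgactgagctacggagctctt
The Gpc3 window lies at chrX:52613925-52614224 on the minus strand, the Sdc1 window at chr12:8771146-8771445 on the plus strand and the Vcan window at chr13:89742463-89742762 on the minus strand. The GC box was matched 4 times in the Gpc3 window, 3 times in that of Sdc1 and 2 times in that of Vcan, and CCAAT 1 time in each. Of 32851 promoter windows of this length, 35.66% hold a GC box and 37.41% a CCAAT. In these 3 windows no match was found for CAGGTG (in 20.21% of all windows), ATCAAAG (3.73%), TGANTCA (7.81%) or TATAAA (13.62%), on either strand. The windows held 30, 14 and 12 CG pairs for Gpc3, Sdc1 and Vcan, where the median window held 7.

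The 4 matrix proteoglycans shared a gap between the normal ductal cultures, while their ranges over the PDAC cultures ran from 0.45 for Bgn to 4.90 for Dcn. In normal ductal replicate 2 all 4 lay more than 1 log2 unit above replicate 1, by 1.14 to 3.81, as 2.93% of all genes did, while none of the 6 syndecans and glypicans did so (-0.23 to 0.92). This difference is between single cultures and has no replicate check. Of the 18 fibroblast and stellate cell markers 14 lay more than 1 higher in the same culture, among them Pdgfra, a receptor of fibroblasts, at 9.65 against 6.63. Dcn and Lum are themselves widely used as fibroblast markers. The part of such cells in these values was not tested.

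Vcan, which binds hyaluronan in loose matrix, had log2 signals of 10.93, 10.40 and 9.68 in PDAC cultures against 7.35 and 10.72 in normal ductal cultures. Only normal ductal replicate 1 was low, and replicate 2 lay among the PDAC values. The log2 fold change of Vcan was 1.30 (SE 1.18, adjusted p = 0.632 by limma), it was 2.99 (adjusted p = 0.188) without normal ductal replicate 2 and it turned to -0.39 (adjusted p = 0.896) without replicate 1.

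Bgn, a small proteoglycan that binds collagen and transforming growth factor beta, showed the same order of the normal ductal cultures over a smaller span. Its log2 signals were 13.24, 13.24 and 12.80 in PDAC cultures against 11.84 and 12.98 in normal ductal cultures. PDAC replicate 3 lay below normal ductal replicate 2, so the groups overlap. The log2 fold change of Bgn was 0.68 (SE 0.41, adjusted p = 0.550 by limma), with 1.25 (adjusted p = 0.181) without normal ductal replicate 2 and 0.11 (adjusted p = 0.923) without replicate 1.

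Dcn and Lum, which lie beside each other on chromosome 10 from 97479500 to 97518163 and from 97565501 to 97572703, did not follow each other in every culture. Dcn had log2 signals of 5.58, 9.10 and 10.48 in PDAC cultures against 7.58 and 11.39 in normal ductal cultures. Lum, which spaces collagen fibrils, had 3.52, 6.77 and 3.66 in PDAC cultures against 3.24 and 6.41 in normal ductal cultures. Both were high in PDAC replicate 2 and normal ductal replicate 2, but PDAC replicate 3 had much Dcn and little Lum. Dcn thus ranged over 4.90 log2 units and Lum over 3.25 within the PDAC group, against which the log2 fold changes of -1.09 (SE 2.07, adjusted p = 0.827) and -0.18 (SE 1.58, adjusted p = 0.996) by limma are small. The sign of both turned with cultures left out: Dcn was 0.31 without PDAC replicate 1 and 0.81 without normal ductal replicate 2, and Lum was 0.39, 0.32 and 1.41 without PDAC replicate 1, PDAC replicate 3 and normal ductal replicate 2.

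The high Dcn of PDAC replicate 3 came together with other features of that culture. Its mesothelial markers Upk3b and Upk1b stood at 10.41 and 10.77. They stood at 5.55 and 4.63 in PDAC replicate 1 and at 5.72 and 4.87 in PDAC replicate 2. In normal ductal replicates 1 and 2 Upk3b was at 5.72 in both and Upk1b at 6.02 and 7.58. The rest of the 5 mesothelial markers were not highest in PDAC replicate 3. Msln was at 11.18 in it and at 11.25 in normal ductal replicate 1. Wt1 and Lrrn4 were at 7.58 and 5.93 in it, against 7.82 and 6.98 in normal ductal replicate 2. The fibroblast genes Thy1 and Mmp2 were at their lowest PDAC value in PDAC replicate 3, 6.29 and 7.85. They are 2 of the 18 fibroblast and stellate cell markers and do not stand for the list. Its means were 9.66, 9.07 and 8.95 in PDAC replicates 1, 2 and 3, nearly equal in the last 2. So the 3 PDAC cultures did not rank alike in the genes that are usually taken as marks of one stromal cell, and the part of any cell type in the Dcn values was not tested.

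**Figure D4:**
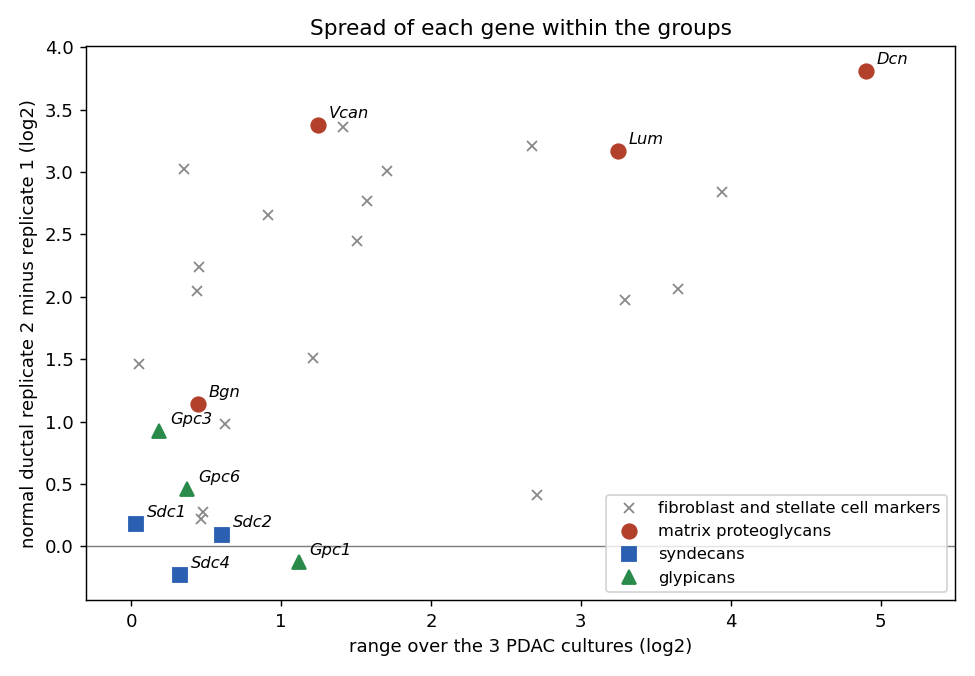
Range of each gene over the 3 PDAC cultures (horizontal axis, log2) against the difference of normal ductal replicate 2 minus replicate 1 (vertical axis, log2), for matrix proteoglycans, syndecans, glypicans and 18 fibroblast and stellate cell markers (crosses). Dcn, Lum and Vcan lie above 3 on the vertical axis and the syndecans between -0.23 and 0.18.

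For the 3 members of widest range the genes of most similar course were sought by the root mean square distance between log2 profiles over the 5 cultures, each centred on its mean. Nearest to Vcan were Pdgfrb (0.29), Loxl3 (0.32) and Colec12 (0.36), and Pdgfrb, a receptor of pericytes and fibroblasts, stood at 11.44, 10.09 and 9.73 in PDAC cultures against 7.46 and 10.47 in normal ductal cultures. Nearest to Lum were Penk (0.46), Cspg4 (0.51) and Thy1 (0.67). Cspg4, itself a proteoglycan gene, NG2 of pericytes, stood at 6.63, 8.75 and 5.88 in PDAC cultures against 6.52 and 8.77 in normal ductal cultures, high in the same 2 cultures as Lum. Dcn had no close neighbour, Anxa10 (0.88), Psca (0.89) and Akr1c18 (0.92) being the nearest. With 5 cultures such likeness is a description only.

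All 13 other small leucine-rich proteoglycans of the list were measured. A positive log2 fold change was found in 10 of them, and in 10608 of all 19938 genes. The median of the list was 0.57. That median was 0.17 without PDAC replicate 1, and it was 0.87 and 2.01 over the members left after dropping the lowest 25% and 50% of genes. Adjusted over all genes, limma called 0, and at an unadjusted p under 0.05 there were 2 higher and 0 lower. The shares of all genes were 6.5% and 6.86%. Podnl1, a podocan-like member, had log2 signals of 9.38, 8.67 and 7.68 in PDAC cultures against 5.82 and 5.79 in normal ductal cultures, a log2 fold change of 2.77 (SE 0.56, adjusted p = 0.218). It was low in both normal ductal cultures, unlike Dcn and Lum. Ogn, or osteoglycin, had 9.99, 9.38 and 10.45 in PDAC cultures against 4.74 and 8.14 in normal ductal cultures, with 3.50 (SE 1.17, adjusted p = 0.352). Fmod, the collagen-binding fibromodulin, stood at 11.71 in PDAC replicate 1 and at 6.72 and 6.46 in the other PDAC cultures, against 5.87 and 6.72 in normal ductal cultures, the widest PDAC range of the list; the value 6.72 was equal to the last digit in PDAC replicate 2 and normal ductal replicate 2. Nyx and Epyc had the smallest p of the lower genes, with log2 fold changes of -0.10 and -0.05.

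Among 24 other core and link proteins the median log2 fold change was -0.01. It was 0.09 after moving arrays to a common median, from -0.13 to 0.0023 with 1 culture left out, and -0.56 over the members left after dropping the lowest 50% of genes, so it has no settled sign. Limma called 0 after adjustment. An unadjusted p under 0.05 was reached by 2 higher and 2 lower genes, beside 6.5% and 6.86% of all genes. Both lower ones are heparan sulfate proteoglycans of basement membranes, but so is Hspg2, named after its values were seen, whose groups overlapped. Hspg2 had 10.61, 10.06 and 9.53 in PDAC cultures against 10.71 and 10.37 in normal ductal cultures (log2 fold change -0.47, SE 0.38, adjusted p = 0.587 by limma). Agrn, or agrin, had log2 signals of 7.84, 7.73 and 8.65 in PDAC cultures against 10.18 and 9.40 in normal ductal cultures, a log2 fold change of -1.72 (SE 0.42, adjusted p = 0.267). Col18a1, the collagen that yields endostatin, had 6.97, 7.40 and 7.17 in PDAC cultures against 8.50 and 7.65 in normal ductal cultures (-0.89, SE 0.32, adjusted p = 0.372 by limma). Every PDAC value of these 2 genes was below both normal ductal values. The remaining syndecan and glypicans, named after their values were seen, overlapped between the groups: Sdc3 had 9.78, 8.89 and 8.52 in PDAC cultures against 9.89 and 9.43 in normal ductal cultures, and Gpc2, Gpc4 and Gpc5 had log2 fold changes between 0.00 and 0.06.

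Higher were Tgfbr3, or betaglycan, a co-receptor of transforming growth factor beta, and the link protein gene Hapln4. Tgfbr3 had log2 signals of 9.42, 9.03 and 8.24 in PDAC cultures against 5.76 and 7.53 in normal ductal cultures (log2 fold change 2.25, SE 0.70, adjusted p = 0.331). Hapln4 had 6.47, 6.41 and 6.28 in PDAC cultures against 5.72 and 5.84 in normal ductal cultures (0.61, SE 0.08, adjusted p = 0.166 by limma). Single cultures stood out in 2 further genes: Esm1, or endocan, was at 8.92 in PDAC replicate 2 and between 4.64 and 5.94 in the other 4 cultures. Srgn, the proteoglycan of secretory granules in blood cells, was at 10.78 in normal ductal replicate 2 and at 7.09 or less elsewhere. The mean of 9 leukocyte markers was 5.11, 5.10 and 5.33 in PDAC replicates 1, 2 and 3 against 5.76 and 6.18 in normal ductal replicates 1 and 2; between the normal ductal cultures 1 of the 9, Lyz2, differed by more than 1 log2 unit (8.52 in replicate 2, 5.67 in replicate 1), and Ptprc stood at 4.59 in both. The part of leukocytes in Srgn was not tested.

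Sugar chains start with a short linker on the core protein and need activated sugar and sulfate. Of 12 genes for these steps, 9 had a positive log2 fold change, as did 10608 of all 19938 genes. The list median was 0.34, or 0.13 without normal ductal replicate 1. Limma called 0 after adjustment, while 3 had an unadjusted p under 0.05, all of them higher. Of all genes 6.5% were higher and 6.86% lower at that p. The sulfate donor genes Slc35b2, its Golgi transporter, and Papss1, its synthase, had log2 fold changes of 0.49 (SE 0.12, adjusted p = 0.277) and 0.93 (SE 0.25, adjusted p = 0.288) by limma. Pxylp1, a phosphatase of the linker xylose, had 1.30 (SE 0.41, adjusted p = 0.331) with 8.63, 8.16 and 8.17 in PDAC cultures against 6.47 and 7.58 in normal ductal cultures. The linker genes Fam20b and B4galt7 had -0.31 and -0.52, and Papss2 had the widest PDAC range, 0.97.

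Of 24 measured heparan sulfate enzymes, 18 had a positive log2 fold change, as did 10608 of all 19938 genes. Ndst1 was on the list but was not measured. The list median was 0.10. The median was 0.058 without PDAC replicate 1, 0.15 without normal ductal replicate 1 and 0.020 without normal ductal replicate 2, and 0.38 over the members left after dropping the lowest 50% of genes. Limma again called 0 after adjustment. Beside 6.5% of all genes higher and 6.86% lower, 5 enzymes had an unadjusted p under 0.05, all of them higher. These 5 were the polymerase subunit Ext2, the related Extl2, the sulfotransferase Ndst2 and the late-acting sulfotransferases Hs3st3a1 and Hs3st3b1. Hs3st3a1 had log2 signals of 5.89, 5.42 and 5.63 in PDAC cultures against 4.03 and 4.38 in normal ductal cultures, a log2 fold change of 1.44 (SE 0.20, adjusted p = 0.166). Hs3st3b1 had 7.15, 7.26 and 7.30 in PDAC cultures against 6.81 and 6.57 in normal ductal cultures (0.55, SE 0.11, adjusted p = 0.212). These 2 paralogs are alike in sequence, and how far their probes tell them apart was not tested. Ext2 (0.38), Extl2 (0.77) and Ndst2 (0.57) were named after their values were seen.

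Sulf1 and Hpse encode enzymes that trim the chains outside the cell. Both are given because of their spread: Sulf1 had the widest normal ductal gap of the list and Hpse the widest PDAC range. Sulf1, which removes sulfate from heparan sulfate, had log2 signals of 8.60, 6.80 and 8.88 in PDAC cultures against 7.82 and 10.07 in normal ductal cultures. Hpse, or heparanase, had 6.16, 7.91 and 9.32 in PDAC cultures against 6.16 and 6.11 in normal ductal cultures. The value 6.16 was equal to the last digit in PDAC replicate 1 and normal ductal replicate 1. The sulfotransferases Hs6st1 and Hs2st1 had the smallest p of the lower genes (log2 fold changes -0.64 and -0.24, adjusted p = 0.550 and 0.553 by limma).

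Of 16 chondroitin and dermatan sulfate enzymes, 12 had a positive log2 fold change, as did 10608 of all 19938 genes. The list median was 0.30, or 0.12 without normal ductal replicate 1. Limma called 0 after adjustment. Beside 6.5% of all genes higher and 6.86% lower, 1 gene, higher in PDAC, had an unadjusted p under 0.05. It was Csgalnact2, which begins chondroitin chains, with log2 signals of 9.10, 9.53 and 9.11 in PDAC cultures against 8.66 and 8.55 in normal ductal cultures (log2 fold change 0.65, SE 0.18, adjusted p = 0.300). Its paralog Csgalnact1 parted the normal ductal cultures instead, with 8.41, 7.51 and 7.05 in PDAC cultures against 5.85 and 8.12 in normal ductal cultures. Chst14, which sulfates dermatan, had 0.43 (SE 0.16), Chst11 -0.97 (SE 0.74) and Dsel, an epimerase of dermatan, -0.91 (SE 0.86) with the widest PDAC range of the list, 2.52.

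Hyaluronan, the sugar to which versican binds, is made at the cell membrane by the Has enzymes. Of 11 measured genes of its enzymes and receptors, the median log2 fold change was -0.14. It was -0.30 without normal ductal replicate 1, 0 without replicate 2 and -0.04 at a common array median, and it turned to 0.29 over the members left after dropping the lowest 50% of genes. Limma called 0 after adjustment. An unadjusted p under 0.05 was reached by 1 higher and 1 lower gene, beside 6.5% and 6.86% of all genes. Cd44, the main hyaluronan receptor, had log2 signals of 10.66, 10.20 and 10.81 in PDAC cultures against 11.63 and 11.40 in normal ductal cultures (log2 fold change -0.96, SE 0.22, adjusted p = 0.251). Hmmr, which is also a mitotic spindle protein, had 9.69, 9.40 and 9.84 in PDAC cultures against 8.95 and 8.87 in normal ductal cultures (0.73, SE 0.16, adjusted p = 0.238). Has2, the main synthase of mesenchymal cells, ranged from 7.60 to 10.48 over the PDAC cultures and stood at 7.03 and 10.59 in normal ductal replicates 1 and 2, and replicate 2 was also the one with more Vcan. Cemip, a hyaluronan-degrading protein, had 0.93 (SE 1.11) and Hyal2 -0.36 (SE 0.18).

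Proteases that cut core proteins and enzymes that release them gave 12 measured genes, a median log2 fold change of -0.03 and 0 calls by limma after adjustment. The median was 0.07 after moving arrays to a common median, 0.24 without PDAC replicate 3 and 0.10 without the lowest 25% of genes, so it has no settled sign. In the fit of all 5 cultures 2 higher and 1 lower had an unadjusted p under 0.05, beside 6.5% and 6.86% of all genes. Notum, a secreted lipase known to act on Wnt proteins and to release glypicans, had log2 signals of 5.94, 6.66 and 6.67 in PDAC cultures against 5.65 and 5.10 in normal ductal cultures (log2 fold change 1.05, SE 0.33, adjusted p = 0.331). Adamts9, a versican-cutting protease, had 0.58 (SE 0.19, adjusted p = 0.340). Mmp9, which can shed syndecans, had 6.05, 6.75 and 5.91 in PDAC cultures against 10.54 and 8.20 in normal ductal cultures (-3.13, SE 0.82, adjusted p = 0.286 by limma). Mmp7, another sheddase of Sdc1, had -1.57 (SE 0.67, adjusted p = 0.456 by limma). The versican-cutting Adamts5 ranged most, at 10.84, 8.84 and 6.28 in PDAC cultures against 8.69 and 8.04 in normal ductal cultures.

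Of 6 proteins that bind the cytoplasmic tail of syndecans or its complexes, limma called 0 after adjustment. An unadjusted p under 0.05 was reached by 1 higher and 2 lower genes, beside 6.5% and 6.86% of all genes. The median log2 fold change was -0.38, or -0.21 without PDAC replicate 1. Sdcbp2, or syntenin-2, stood at 5.98, 6.70 and 6.76 in PDAC cultures against 9.51 and 9.64 in normal ductal cultures, a log2 fold change of -3.09 (SE 0.29, adjusted p = 0.140). Its adjusted p was under the threshold after quantile normalization, after moving arrays to a common median and without the lowest 50% of genes. Its paralog Sdcbp, or syntenin-1, named after its values were seen, had 10.70, 11.47 and 11.38 in PDAC cultures against 11.50 and 11.38 in normal ductal cultures, which overlap. Gipc1 had -0.50 (SE 0.14), the scaffold Cask 0.59 (SE 0.15) and the kinase Prkca 0.68 (SE 0.35). The membrane linker Ezr, with the widest PDAC range, 1.58, had -0.84 (SE 0.53).

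**Figure D5:**
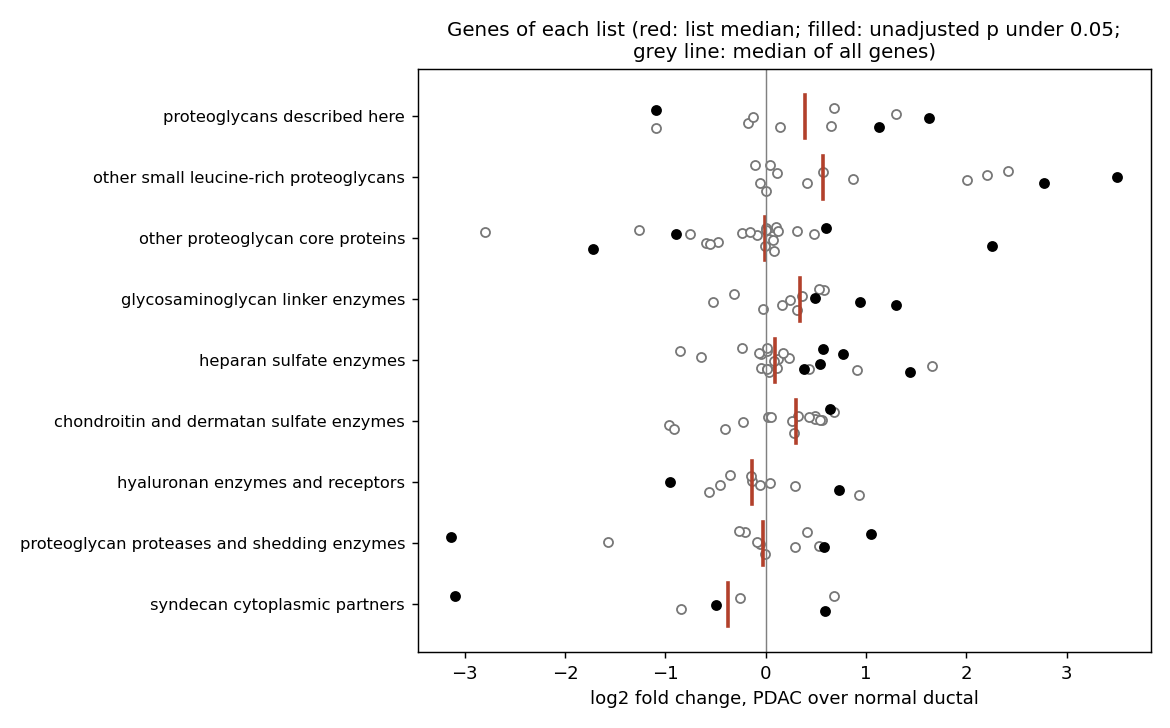
Log2 fold change, PDAC over normal ductal (horizontal axis), of every measured gene of the 10 proteoglycans and of the 8 related lists (1 row per list, points spread vertically for sight). Red bars are list medians, from -0.38 to 0.57, the grey line is the median of all genes, and filled points have an unadjusted p under 0.05.

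Over the 118 measured genes of these 8 lists, an unadjusted p under 0.05 was reached by 17 higher and 6 lower genes, where all genes gave 6.5% and 6.86%, and limma called 0 after adjustment. In 24 of them every PDAC value was above both normal ductal values and in 11 below, against 13.6% and 12.8% of all genes. The following counts were taken at an unadjusted p under 0.05, with 1 normal ductal culture left out. Without normal ductal replicate 2, 5 of the 10 members were higher and 1 was lower, beside 5.21% and 13.5% of all genes. The higher members were Bgn, Vcan, Sdc1, Sdc2 and Gpc6, and the lower member was Gpc3. Without normal ductal replicate 1, 2 were higher (Sdc2 and Gpc6) and 1 was lower (Gpc3), beside 13.5% and 6.15% of all genes. In these fits the lone normal ductal culture is assumed to vary like the PDAC cultures.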

How the data were processed

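The values used are those the authors deposited in the series matrix, log2 signals of 35556 probe sets on 5 arrays. Per the labels' protocols the RNA came from a column kit and was amplified and biotin-labelled. The submitters' processing notes name Transcriptome Analysis Console 1.0.0.234 and mm10. How background, normalization and probe summary were done is not stated there, and the log2 base was inferred from a value range of 0.727 to 13.9, so another base would change the fold changes.

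The platform annotation named the probe sets, and 21698 of the 21789 with 1 symbol were matched by Entrez identifier to GRCm38.p6. For the 999 genes with several probe sets the one with the highest mean was kept, which left 19938 genes. Groups came from the titles. Each gene was fitted with limma 3.58.1 under R 4.3.3, using lmFit and eBayes with variance trended on intensity, 2-sided p-values and Benjamini-Hochberg adjustment over all genes. Python 3.11.15 and matplotlib 3.10.9 made tables and figures. The members and lists were chosen with earlier results of these data known. Besides the members and Apc, each list is represented by its 2 genes of smallest p in each direction and those that vary most within a group; others are said to have been named later or stand as markers. The other gene floxed in these mice is not analysed here. On simulated data with 200 changed genes among 19938, for PDAC against normal ductal cultures, calls were made for 34.0% of genes shifted by 1 log2 unit, 64.2% shifted by 2 and 85.7% shifted by 4. Of the calls, 4.9% were false. The noise of each gene was drawn from its own spread within groups, and the changed genes were picked from all genes. Equal values in 2 or more arrays occur in 47.8% of all genes and in 0 of the members. The shares called are therefore not those of the members.

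As alternatives, arrays were quantile normalized or moved to a common median, the lowest 25% or 50% of genes were dropped, the trend was omitted, variances were fitted robustly, probe sets were averaged, the replicate number was a block, and each culture was left out.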

Additional observations from a re-analysis of the deposited data

How the results depend on the processing

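Bgn and Sdc4, whose groups overlap, kept their direction in every alternative run, and in Sdc1, Sdc2, Gpc1, Gpc3 and Gpc6, whose groups do not overlap, leaving out a culture cannot turn it. No member passed the threshold in any run that kept both normal ductal cultures. The counts of all genes past the threshold, 1 higher and 10 lower, became 10 and 32 after quantile normalization, 23 and 57 at a common array median, and 15 and 27 without the lowest 50% of genes; without the lowest 25% the higher count was 3. With 1 culture left out they ran from 0 to 980 higher and from 0 to 865 lower. The median of the members was 0.39. With 1 culture left out it ran from 0.021 to 1.03, the extremes being without normal ductal replicate 1 and without replicate 2. Of the related genes, 1 was called with quantile normalization, 1 with a common array median and 1 without the lowest 50% of genes, and 0 to 5 with 1 culture left out, some of them genes with equal values in several arrays. Such equal values occur in 47.8% of all genes and in 0 of the members. The sign turned for Dcn (0.31 without PDAC replicate 1, 0.81 without normal ductal replicate 2, from -3.00 to 0.81 over the cultures left out), for Lum (0.39 without PDAC replicate 1, 0.32 without PDAC replicate 3, 1.41 without normal ductal replicate 2, from -1.76 to 1.41) and for Vcan (-0.39 without normal ductal replicate 1, from -0.39 to 2.99); the cause was not tested. With the replicate number as a block, 0 genes were higher and 0 lower after adjustment by limma (1104 and 1110 at an unadjusted p under 0.05) and Lum turned to 0.32, the same estimate as without PDAC replicate 3, since that culture has no partner. Deviations of same-numbered cultures from their group means had correlations of -0.18 and -0.04 across genes, which are not independent. With 2 normal ductal cultures these deviations mirror each other, so the same PDAC cultures gave 0.18 and 0.04 with the other normal ductal culture. The correlations therefore cannot show whether same-numbered samples share an origin. At a common array median, all genes together had a median of 0.10 for this change, against 0.01 as deposited. The medians of the related lists moved with cultures left out and with the gene filter, as given beside each list. The 5 arrays, and for Lum and Gpc3 log2 signals in the lower part of the scale, limit what can be resolved.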
